A study of Drosophila melanogaster with 2 samples.

Results

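The 10 genes described here are tin, twi, sna, Mef2, bap, bin, zfh1, lmd, nau and how, a named set of mesoderm and heart regulators, taken from 13968 protein-coding genes in the Ensembl annotation of the dm6 genome. For each gene, every ChIP-seq peak was taken whose summit lay inside the gene or within 5 kb of it. ChIP-seq (chromatin immunoprecipitation with sequencing) was run on whole Drosophila melanogaster embryos of 0 to 24 h from a transgenic strain that expresses CG7372 fused to eGFP, and the fusion was pulled down with an antibody against GFP. All samples belong to 1 group, the strain CG7372-GFP, with 2 biological replicates that share the strain, stage and tag. Neither an untagged strain nor an input library was analysed here, and the labels do not name the promoter that drives the fusion or the sex of the embryos. The embryo pools cover all tissues, so few cells with the protein at a site and little of it in each cell cannot be told apart.

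Mesoderm formation in the fly begins with twi and sna, which encode a basic helix-loop-helix activator and a zinc-finger repressor of ventral cells. The homeodomain gene tin then directs dorsal mesoderm and heart, bap and the forkhead gene bin direct the gut musculature, and Mef2 encodes the MADS-box factor of muscle differentiation. The zinc-finger homeodomain gene zfh1 acts in several mesodermal and neural cells, lmd encodes a Gli-related factor of fusion-competent myoblasts, and nau is the fly relative of the vertebrate MyoD genes. The gene how encodes an RNA-binding protein of muscle and tendon cells and not a transcription factor, so the set is called the mesoderm and heart genes below.

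Peaks lay near 8 of the 10 genes, and at the start site of 1 of them, tin. The conservative list, 1 of a pair of thresholded lists made for the whole series, held 4593 peaks on the chromosome arms, and 16 of them fell in the windows of tin, twi, Mef2, bin, zfh1, lmd, nau and how. The genes sna and bap had none. By the same rule 46.8% of all protein-coding genes had a peak, so 8 of 10 is read against that share. A summit within 500 bp of a start was found at 16.7% of all genes, so 1 of 10 is near the background. The members are long genes, with a median length of 5.52 kb against 2.16 kb for all protein-coding genes, and a longer window holds more peaks. All 4 members of 20 kb or more (twi, Mef2, zfh1 and how) had a peak, where 72.1% of all genes of that length did. Of these, twi reaches that length only through 1 distant start, and without that transcript it spans 2.22 kb and had no peak. Of the 6 shorter members 4 had one, where 44.8% of all shorter genes did. With 10 genes and no second condition, no test was made of these shares.

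**Figure D1:**
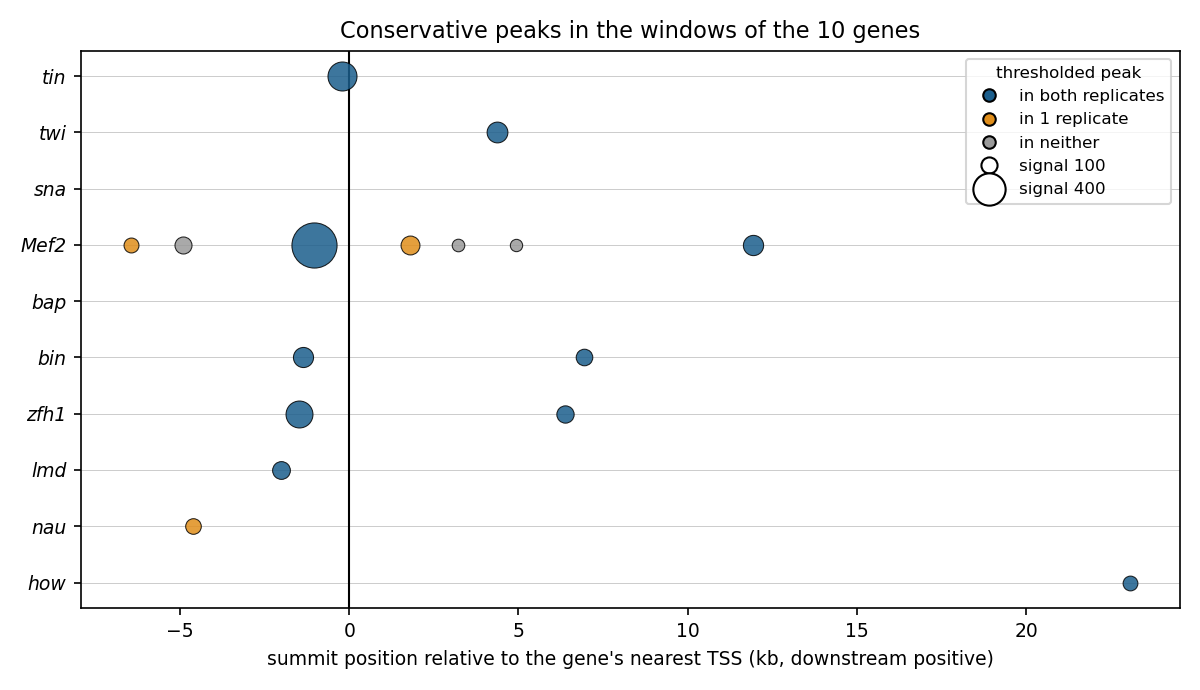
Position of the 16 conservative peaks relative to the nearest transcription start site (TSS) of their gene, in kb, with downstream positive; the area of a point is proportional to the peak's signal, and the colour shows in how many replicates the site passed the threshold. The tin peak lies at the start site, the largest point is the Mef2 peak 1048 bp upstream, and sna and bap have no point.

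The letters CGTAT recur within 50 bp of the summit at 30.8% of all conservative sites, so most sites lack them. The sites of these genes differed in whether they hold them. The windows below reach 50 bp to either side of the summit in the Release 6 (dm6) genome from RefSeq, plus strand, and were chosen as the strongest tin and zfh1 sites, which lack CGTAT on both strands, and the bin and how sites that hold it. Capitals mark CGTAT, here read as ATACG because it lies on the minus strand.
tin, chr3R:21378701-21378801: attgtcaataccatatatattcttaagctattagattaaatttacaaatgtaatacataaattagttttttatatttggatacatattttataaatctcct
zfh1, chr3R:30781711-30781811: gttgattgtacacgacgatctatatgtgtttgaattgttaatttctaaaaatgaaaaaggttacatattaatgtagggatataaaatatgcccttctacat
bin, chr3L:6997500-6997600: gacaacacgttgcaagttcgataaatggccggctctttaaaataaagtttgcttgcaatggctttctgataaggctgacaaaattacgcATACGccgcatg
how, chr3R:22065200-22065300: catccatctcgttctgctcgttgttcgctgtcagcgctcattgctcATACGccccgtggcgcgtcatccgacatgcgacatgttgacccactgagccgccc
The tin and zfh1 windows were 17.8% and 27.7% G and C, the bin and how windows 42.6% and 60.4%, and the median over all 4593 conservative summits was 36.6%. The zfh1 window reaches into an exon of an antisense RNA gene, asRNA:CR45189. The presence of CGTAT did not follow base composition at every site, since the strongest Mef2 window held it at 29.7% G and C.

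The heart gene tin (FBgn0004110, 3R, 21378977 to 21381970, plus strand) was the one member with a peak at its own start. Its summit lay at 21378751, in intergenic sequence 226 bp upstream of the single annotated TSS, and no other gene starts within 500 bp of it. Signal values are the authors' own, on an unstated scale, so signals are compared within 1 list and ranks are used across lists. In the conservative list the tin peak had a signal of 324 and ranked 237 of 4593. In replicate 1 it had a signal of 163 and ranked 301 of 54168 ranked peaks, and in replicate 2 it had 164 and ranked 203 of 57681. Replicate ranks below are places in these ranked lists, while conservative and series-level ranks are places in the thresholded lists. The summits of the replicates lay 8 bp to either side of the conservative summit, and the peak passed the threshold in both. The other conservative members had their nearest peak 1048 bp or more from a start of their own.

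The next NK homeodomain gene along the chromosome, bap (FBgn0004862, 3R, 21388880 to 21390449), starts 9.90 kb beyond the tin start, and its window held no conservative peak. In the other thresholded list made for the whole series, called series-level below, a weak peak passed at 21392681, 3801 bp downstream of the bap TSS, with a signal of 53.0 and rank 4305 of 4781. The irreproducible discovery rate (IDR, the estimated share of irreproducible peaks among those at least as well supported) was 0.0132 in the ranked form of the conservative list, just outside the 0.01 at which peaks were kept, and 0.00789 in the ranked form of the series-level list. Its signal was 28.4 in replicate 1 and 22.5 in replicate 2, and it passed in neither replicate alone. The bap call thus rests on the choice of list.

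The genes tin and bap open a cluster of NK homeobox genes on 3R that also holds lbl, lbe, C15 and slou. Over the 188 kb from 5 kb before tin to 5 kb past slou, the conservative list held 11 peaks. The strongest lay at 21520363, 141 kb beyond the tin start and 565 bp from the TSS of sp3, with a signal of 429, and the tin peak was second. The lbl window held 4 peaks, the strongest in an lbl intron at 21422690 with a signal of 113, and lbe, C15 and slou had 1 each. The peaks next to bap lay 6358 and 6564 bp past the gene, nearer to the Ugt49B2 start, with signals of 83.8 and 18.4. This cluster was looked at after the tin and bap values were known.

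**Figure D2:**
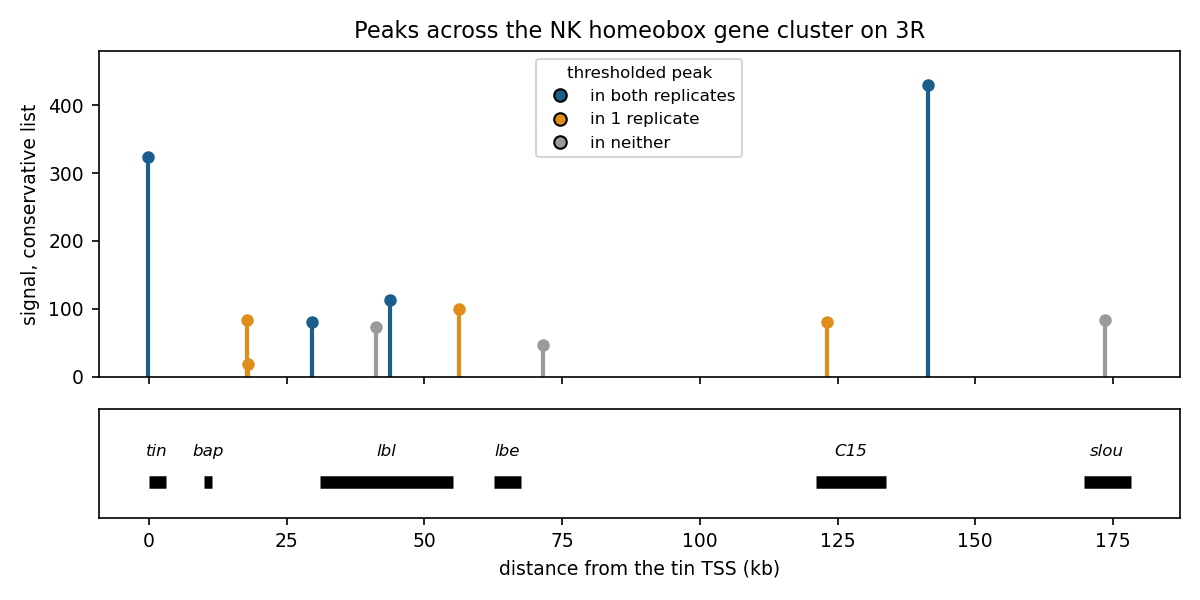
Signal of the 11 conservative peaks across the NK homeobox cluster on 3R (vertical axis) against the distance from the tin TSS in kb; black bars are the genes, and colours show in how many replicates the peak passed the threshold. The tin start and a site near sp3, with signals of 324 and 429, stand above the other 9 peaks, which do not pass 113.

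The muscle differentiation gene Mef2 (FBgn0011656, 2R, 9913496 to 9958858, minus strand, 45.4 kb) had 7 of the 16 peaks. As many peaks or more were found at 0.279% of all protein-coding genes, and at 8.24% of those at least as long as Mef2. The strongest peak of any member lay upstream of it, at 9959906, with a signal of 783 and rank 29 in the conservative list. Replicate 1 gave it a signal of 455 and rank 30, and replicate 2 a signal of 324 and rank 47, so both placed it among their strongest 0.0815% of ranked peaks. This summit lay 1048 bp upstream of the 5′-most Mef2 start, in a Pal1 intron, but only 172 bp from a start of Pal1, which encodes a lyase of peptide amidation, and 174 bp from that of Pdrg1. It therefore cannot be assigned to Mef2 rather than to these neighbours.

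The other 6 Mef2 peaks lay inside the gene, 5 in introns and 1 in an exon of the 5′ UTR. They were weaker, and most did not pass the threshold in both replicates. Counted along transcription from the 5′-most start, they lay at 4.94, 9.18, 15.9, 17.3, 22.8 and 41.2 kb, with signals of 58.3, 111, 137, 60.8, 85.5 and 157. The peak at 41.2 kb (9917702), 11913 bp past the last of 3 Mef2 starts, passed in both replicates, with signals of 96.1 and 63.4. A start of another gene, Etf-QO, was nearer to its summit, at 6809 bp. The peak at 15.9 kb (9942980) passed in replicate 2, where its signal was 78.9, and not in replicate 1, where it was 57.5 with an IDR of 0.259. The peak at 22.8 kb (9936059) passed in replicate 1, with a signal of 60.7, and not in replicate 2, where it was 27.0 with an IDR of 0.0319. The other 3 passed in neither replicate alone, although each had a ranked peak in both. Their signals in replicates 1 and 2 were 53.2 and 46.4 (9.18 kb), 29.5 and 29.5 (17.3 kb), and 30.6 and 30.1 (4.94 kb). The IDRs, in the same order, were 0.379 and 0.665, 0.0657 and 0.0268, and 0.579 and 0.0271. The site at 9.18 kb thus failed in replicate 1 at a higher signal than the 52.6 at which the lmd peak passed there. Without Mef2 the remaining windows held 9 peaks.

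**Figure D3:**
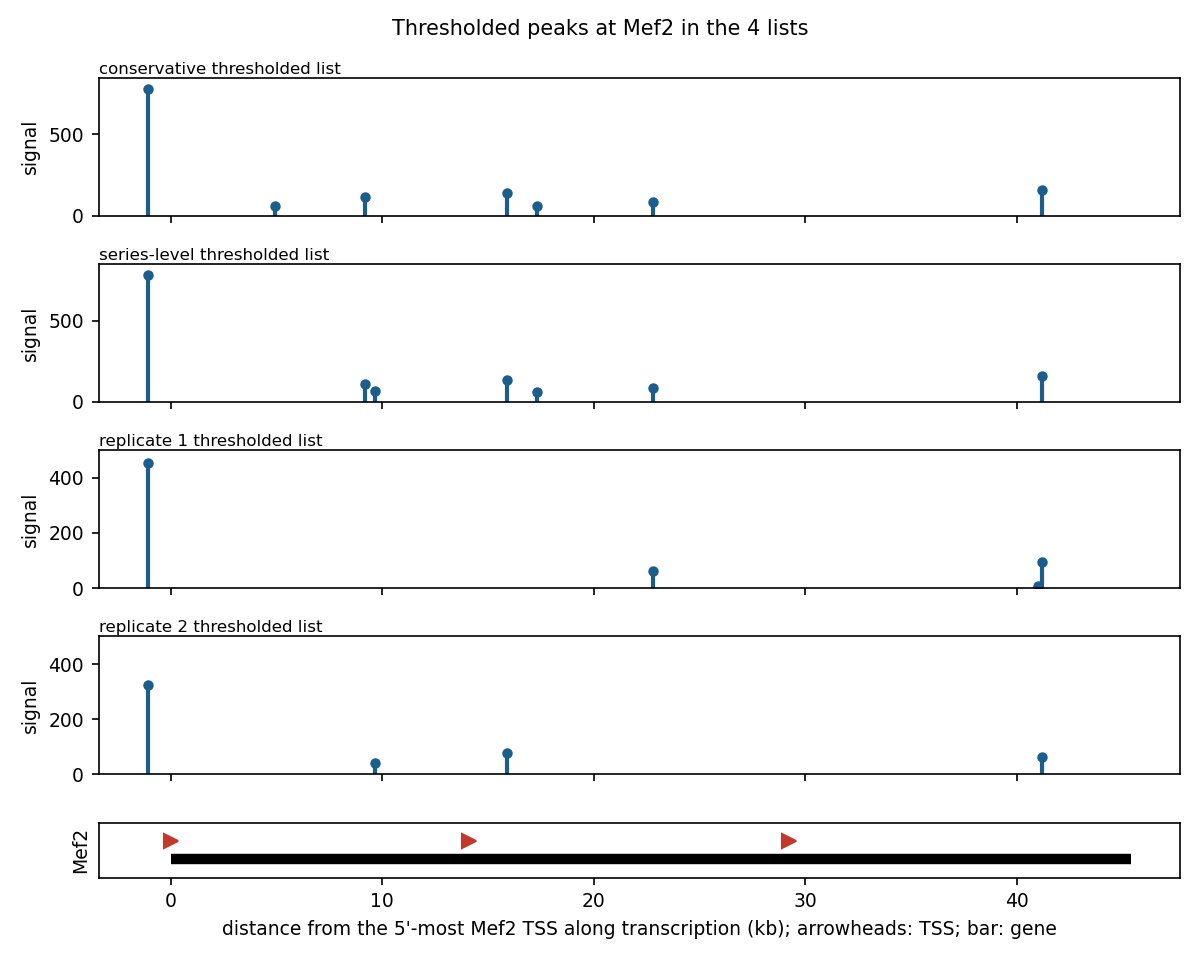
Signal of the thresholded peaks at Mef2 in each of 4 lists, against the distance from the 5′-most start along transcription, in kb; the bar is the gene and arrowheads are its 3 start sites. The peak upstream of the gene is the highest in every list and the one at 41.2 kb is in all 4, while those between differ among lists.

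At the mesoderm determinant twi (FBgn0003900, 2R, 22985374 to 23048325, plus strand) the peak depends on the extent given to the gene. Of 3 annotated starts, 1 lies 60.7 kb upstream of the next, which makes twi 63.0 kb long. The conservative peak at 22989754 lay in the first long intron of that transcript, 4380 bp past its start and 56.4 kb before the next twi start. A start of another gene, CG9897, was nearer to this summit, at 3415 bp. Its signal was 166 in the conservative list, at rank 833. It was 94.2 in replicate 1, at rank 813, and 69.5 in replicate 2, at rank 1058, and passed in both. With the distant transcript left out, an alternative chosen after seeing the data, twi spans 2.22 kb and had no peak within 5 kb in the conservative or the series-level list. A second peak in the series-level list, at 23018874 with a signal of 52.1, lay in introns of both twi and CG42741 and had an IDR of 0.0106 in the ranked form of the conservative list.

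The repressor gene sna (FBgn0003448, 2L, 15476593 to 15478260, minus strand) had no thresholded peak in any of the 4 lists. The strongest ranked peak of its window in replicate 1 had a signal of 13.2 with an IDR of 0.880, 4049 bp from the start. In replicate 2 it had a signal of 19.4 with an IDR of 0.341, 73 bp past the start. The nearest conservative summit lay 10983 bp from the gene. Depth is unknown, so this shows that no peak was kept there, not that the protein is absent.

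The gut muscle gene bin (FBgn0045759, 3L, 6990622 to 6994447, plus strand) had a peak on each side, both found in each replicate. The upstream summit at 6989253, 1369 bp before the TSS in intergenic sequence, had a signal of 155 and rank 936, with 95.6 in replicate 1 and 53.8 in replicate 2. The downstream summit at 6997550 lay 3103 bp past the gene and 1293 bp before the start of Mp, a collagen gene. Its signal was 106, with 46.3 in replicate 1 and 68.6 in replicate 2. Replicate 1 thus ranked the upstream site higher and replicate 2 the downstream one.

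At zfh1 (FBgn0004606, 3R, 30765926 to 30789202, plus strand) the main peak lay inside the gene, 1497 bp upstream of the second of its start sites. This summit at 30781761 was in an intron of zfh1 and of the antisense gene asRNA:CR45189, with a signal of 279 and rank 334. Replicate 1 gave a signal of 157 at rank 326 and replicate 2 a signal of 120 at rank 373, with summits 5 and 11 bp from the conservative one. A weaker peak at 30789639 (signal 115.2, with 44.9 and 73.5 in replicates 1 and 2) lay 437 bp past the zfh1 end, in the 3′ UTR of the oppositely oriented wts, the kinase gene of the Hippo pathway. No conservative peak lay within 5 kb of the first zfh1 start.

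The muscle genes lmd, nau and how each had 1 conservative peak. The lmd summit (3R, 23028733) lay 2020 bp upstream of the gene in intergenic sequence, with a signal of 122, and of 52.6 and 68.9 in replicates 1 and 2, both passing. The how summit (3R, 22065250) lay in an intron 23059 bp past the start, with a signal of 84.1, and of 48.6 and 39.3 in the replicates, both passing. A start of another gene, CG13408, was nearer to the how summit, at 15132 bp. The nau summit (3R, 23722963) lay 4606 bp upstream of nau but 368 bp from a start of CG10365, with a signal of 93.8. It passed in replicate 1, with a signal of 62.2, and not in replicate 2, where the signal was 29.7 with an IDR of 0.184. Replicate 2 had its nau peak 818 bp away, at 23722145, so that each replicate counted nau through a different site. This is the closest case to the 5 kb limit inside it, and the nearest conservative summit outside any window was the one 6358 bp past bap.

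The replicates named the same 8 genes. In replicate 1, 13 peaks fell in the windows and 8 of 10 members had one, where 35.1% of all protein-coding genes did. In replicate 2 it was 14 peaks and 8 members, against 38.0%. Each of these peak counts includes a weak second call that overlaps a stronger one. In replicate 1 it was at Mef2 (9917892, signal 7.23), and in replicate 2 at bin (6989461, signal 17.0). The series-level list added bap and gave 9 of 10, against 47.8%, with 19 peaks. The pair of lists are not nested: of the 4593 conservative peaks 4053 were in the series-level list, and the Mef2 peak at 4.94 kb was not, with an IDR of 0.00399 in the first and 0.0152 in the second. Of the 16 conservative peaks, 10 were matched by a peak past the threshold in each replicate, 3 in only 1 of them and 3 in none. Over the whole conservative list 46.8% were found in both, 26.9% in 1 and 26.3% in none. All 6 member peaks that missed a replicate were at Mef2 or nau.

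**Figure D4:**
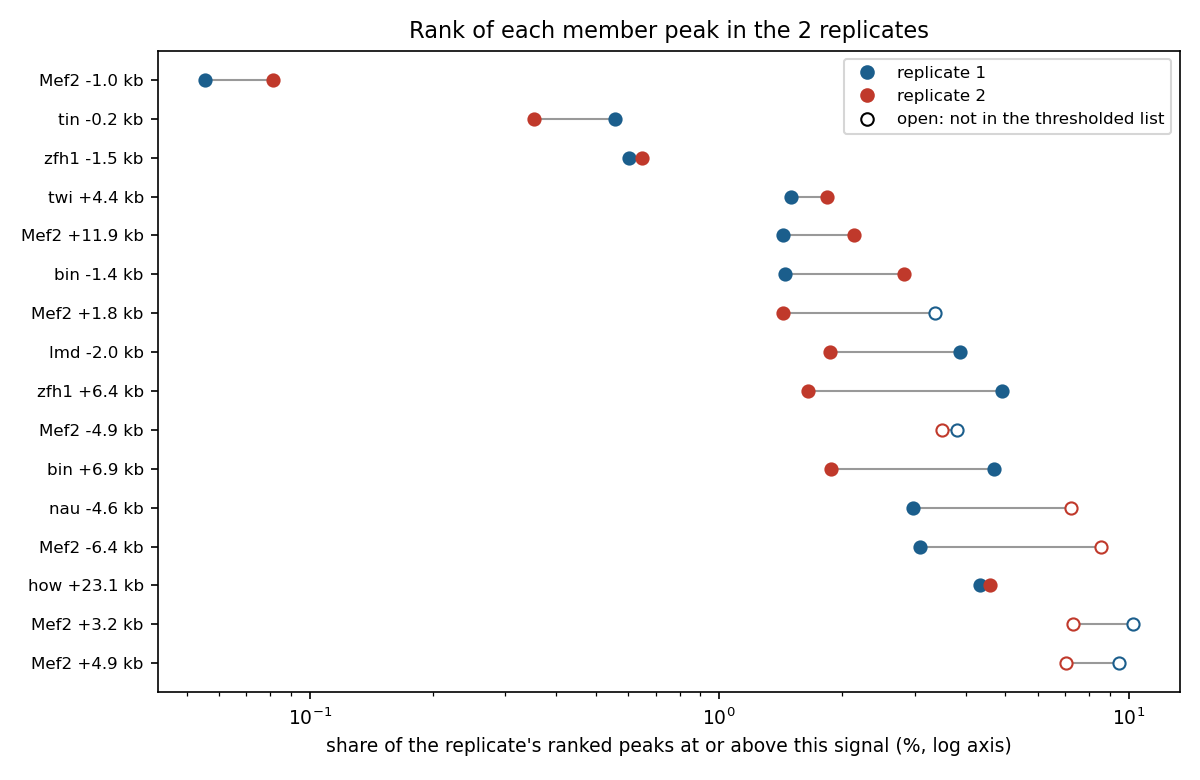
For each of the 16 conservative peaks, the share of a replicate's ranked peaks with the same or a higher signal, in percent on a log axis; filled points passed the threshold in that replicate and open points did not. The upstream Mef2, tin and zfh1 sites lie under 1% in both replicates, and the weakest Mef2 sites lie between 7.05 and 10.3%.

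**Figure D5:**
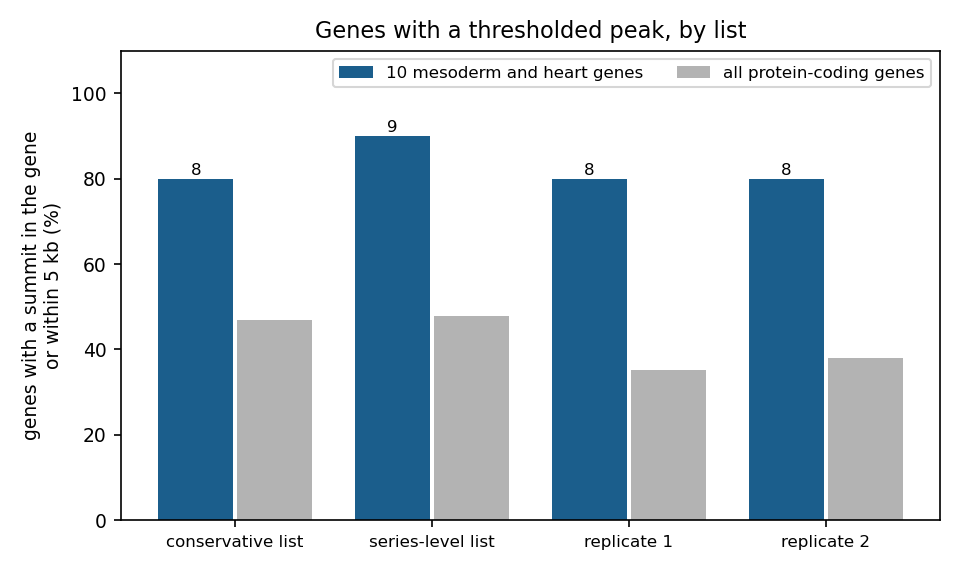
Share of genes with a thresholded summit in the gene or within 5 kb, in percent, for the 10 mesoderm and heart genes (the number is printed on the bar) and all protein-coding genes, in each of 4 lists. The members stand at 8, 9, 8 and 8 of 10, and all genes between 35.1 and 47.8%; these shares are not adjusted for gene length.

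Fewer of the member peaks lay at a start site than in the list as a whole, while the shares beyond 5 kb were close. Measured to the nearest protein-coding start of any gene, 3 of 16 summits (18.8%) lay within 500 bp, 4 (25%) from there to 2 kb, 5 (31.3%) from there to 5 kb and 4 (25%) farther. Over all 4593 summits the shares were 39.6%, 21.0%, 16.0% and 23.4%. The member rule takes any summit inside a gene, 7 of the 16 were Mef2 peaks, and these shares are not adjusted for gene length. The nearest protein-coding start belonged to the member itself for 10 of the 16. Signals ran from 58.3 to 783 with a median of 118, against a median of 88.3 over the list, and 12 of the 16 peaks were at or above the latter. These are descriptions, since peaks of 1 window are not independent.

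Member windows held more peaks per length than the arms, by an amount that depended on the list. The arms include sequence far from genes, and the density over the windows of all protein-coding genes was not counted. The ratios are therefore not read as a result about these genes. The 287 kb of windows held 5.58 conservative peaks per 100 kb, against 3.43 over the arms without the Y, a ratio of 1.63. The ratio was 1.86 in the series-level list, 2.17 in replicate 1 and 2.12 in replicate 2. The replicate ratios count the overlapping second calls at Mef2 and bin. Leaving out Mef2, a choice made after its count was seen, gave ratios of 1.13 in the conservative list, 1.45 in the series-level list, 1.86 in replicate 1 and 1.88 in replicate 2. Mef2 thus made up most of the excess over the arms in the conservative list, and less of it in the lists of the single replicates. Ranked peaks, most of them not reproducible, were also denser in the windows, at 97.0 per 100 kb against 66.9. The share of ranked peaks that was kept was 5.76% in the windows and 5.13% on the arms.

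The letters CGTAT, searched on both strands, occurred within 50 bp of the summit at 7 of 16 member sites (43.8%) and at 30.8% of all conservative sites. In windows reaching 100 bp to either side the members' count was still 7, and the share over all sites was 40.3%. They lay at the twi summit, at 3 Mef2 summits, at the downstream bin summit, at the zfh1 site in wts and at how. Windows 300 bp to either side held them in 5 of 32 cases at the members (15.6%) and in 10.5% over the list. The longer words, each of which contains CGTAT on one strand, were rarer. GCGTATAC was found at 3 member summits against 8.88% of all, CATACGCC at 2 against 9.01% and CGCATACG at 1 against 7.84%. At twi GCGTATAC occurred at 2 places, centred at −31.5 and −4.5 bp from the summit on the plus strand. GAGAG, the core of GAGA factor sites, was found at 2 member summits (12.5%, against 9.43% of all).

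Sequences that Tinman, Twist and Nautilus are known to recognise were about as frequent at these summits as at all. The letters TNAAGTG, for Tinman, occurred at 1 of 16 summits, the Mef2 site at 4.94 kb, and at 6.95% of all. CANNTG, the E-box of Twist and Nautilus, occurred at 6 of 16 (37.5%) and at 36.7% of all, the tin summit among them. CAGGTA, which is not an E-box and forms the core of sites of the early activator Zelda, occurred at 0 of 16 and at 1.33% of all. Both strands were searched, and a match is not evidence of a bound site.

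Other genes of mesoderm and heart development had a peak about as often as genes in general, although they are longer. Of 55 genes listed outside the set, 27 (49.1%) had a conservative summit in the gene or within 5 kb, beside the 46.8% of all genes. Their median length was 13.6 kb. The 55 include 5 genes chosen as relatives or partners of the members, of which 1 had a peak. Among 26 transcription factor genes 13 had one. Here org-1, a T-box gene of muscle founders, had a summit 360 bp upstream of its start (signal 466, rank 112). The GATA gene pnr, which acts with tin in the heart, had one 292 bp upstream (signal 302), and the paired-box gene Poxm one 449 bp upstream (signal 209), so these resemble tin in position. They were the only 3 of the 26 with a summit within 500 bp of their own start. Over the 55 genes it was 8, where 16.7% of all protein-coding genes had one. The LIM-homeodomain gene tup had a signal of 240, but at a summit 123 bp from the start of CG10602. The factor genes mid, H15, svp, Hand, ap, Kr, eve, sd, Dr, Six4, Him, opa and slp1 had none. Doc3 was counted through 1 summit that it shares with Doc2, which had 3.

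Of 12 signal and receptor genes (median length 14.4 kb) 7 had a peak, where 46.8% of all protein-coding genes did. None of the 12 had one within 500 bp of its own start, where 16.7% of all genes did. Med, the co-Smad of Dpp signalling, led with a signal of 549, but its summit lay 7 bp from the Mnat9 start. Mad, the Smad of the pathway, had a summit 663 bp upstream (signal 212), the FGF gene ths one 1462 bp past a start (signal 212) and dpp itself one 5282 bp past a start (signal 135). The FGF receptor gene htl, and pyr, tkv, Alk and wg, had none. Of 9 myoblast fusion genes (median length 23.4 kb) 4 had a peak: kirre, an adhesion gene of 394 kb (13 peaks, highest signal 235), mbc (162), rols (92.1) and Vrp1 (70.7). The strongest kirre summit lay 45951 bp past a kirre start and 2566 bp from the start of CG32795. The mbc, rols and Vrp1 summits lay 134, 428 and 125 bp upstream of their own starts. The mbc summit was also 10 bp from the Nup98-96 start. The rols and Vrp1 peaks passed in replicate 2 and not in replicate 1. For the genes that act before twi and sna, the inhibitor gene cact (174, 182 bp upstream) and the receptor gene Tl (108) had a peak and dl had none. Among relatives and partners, da, which encodes the dimer partner of Twist, had 2 peaks, and esg, wor, scrt and zfh2 had none. The stronger da peak (108) lay 194 bp from the Cdk1 start, and da also had a summit within 500 bp of its own start.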

How the data were processed

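Peaks were analysed from 8 deposited lists on dm6 for 2 replicates of 1 group. The authors' signal, score and summit of each peak were used as deposited. By the deposited notes, series-wide lists came from the alignments of both replicates and further unnamed inputs. The deposited score follows the IDR, with 830 or more (an IDR of about 0.01) in thresholded lists, and ranked lists also give the deposited −log10 of the IDR. The aligner and peak caller were not given in the sources used here. Depth is unknown. Genes came from Ensembl release 115, whose coordinates equalled those of RefSeq Release 6 for all 10 members, and the peak ends lay within that genome. Python 3.11.15 was used. Peaks were ranked by signal on the arms, which left out 1 peak of the conservative list. Replicate support needed 1 shared bp. The counting was tested on simulated peaks. The design has 1 group, so values are described without tests.

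The members, gene lists and words were chosen with earlier results of these data known. By the rule for named genes, the text gives all members, their conservative peaks, genes starting at those summits, and up to 4 genes a list by signal; genes without a peak, the NK cluster and the Doc genes were added after the values were seen.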

Additional observations from a re-analysis of the deposited data

How the results depend on the processing

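Counts of members, of member peaks, of all genes and of other mesoderm genes stayed within 1.5 times of the reported count at 2 and 10 kb, in the series-level list, among peaks at or above the median signal and with overlapping peaks merged. Without replicate 1 or replicate 2, taking the other replicate's own list, members with a peak numbered 8 in both cases, member peaks 14 and 13, all protein-coding genes 5306 and 4898 and other mesoderm genes 22 to 24. Leaving out the longest twi transcript, chosen after seeing the data, left 7 members and 15 peaks. Giving each summit only to the gene with the nearest TSS left 5 members, 10 member peaks and 2890 protein-coding genes. The reported rule gave 8 members and 6539 of 13968 protein-coding genes, so both counts fell. Members numbered 6 at 2 kb and 9 at 10 kb, beside 4609 and 8714 protein-coding genes. At 200 bp from a TSS no member was left (0, against 1 for tin at 500 bp). The share of all protein-coding genes at 200 bp was not counted, so this is not read as a result about the members. Overlap with ranked rather than thresholded replicate peaks gave 16 of 16 peaks in both replicates. The median rank of the strongest peak of each of the 8 members was the top 19.3% of the conservative list and 18.5% of the series-level list, and in the far longer ranked lists it was 1.47% in replicate 1 and 1.85% in replicate 2. No paired analysis was possible because there is 1 group. Unknown depth limits any reading of missing peaks, above all at sna and bap.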
